A study of Saccharomyces cerevisiae with 9 samples.

Results

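The 60 min arrays of the Ypk1 and Ypk2 inhibitor series were set against each other to see which transcripts differed from wild type with either kinase inhibited and which differed on a single array. They are 2 of the 9 two-colour arrays of the study, with 1 array per condition, so no 60 min value has a replicate. All cells were Saccharomyces cerevisiae deleted for both YPK1 and YPK2, grown in medium without leucine, and alive through a kinase supplied on a plasmid, either wild type (WT) or analog-sensitive (AS), a mutant whose enlarged ATP pocket accepts a bulky inhibitor. At 60 min one array compared AS Ypk1 with WT Ypk1 cells, both given 0.5 µM 2,3-DMB-PP1, and the other compared AS Ypk2 with WT Ypk2 cells, both given 1 µM 3-MB-PP1. The other arrays held 0, 15 and 30 min of each series and a comparison of WT Ypk2 with WT Ypk1 cells without inhibitor. The inhibitor and its dose changed with the kinase, so these cannot be told apart, and the promoter and copy number of the plasmids are not given in the sources used here. Of 6268 features in the table, 6225 had a value on both 60 min arrays. A feature was called shared when its log2 ratio of AS over WT, with the array median set to 0, was at least 1 (a 2-fold difference) on both arrays with one sign, and single-array when it was so on one of them.

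Ypk1 and Ypk2 are related protein kinases of budding yeast that are switched on at the plasma membrane by the TORC2 complex and the Pkh kinases. They release sphingolipid synthesis from the Orm proteins, restrain the kinases that activate lipid flippases, and are needed for a sound cell wall and for endocytosis. Either kinase alone keeps cells alive, and loss of both is lethal.

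The direction of the ratios, AS over WT, is likely but not stated. It was read from the array of the WT strains, where YPK2 stood at 5.49 and YPK1 at −4.33, as the plasmids would give with Cy5 over Cy3. AS cells were always in the Cy5 channel, so a dye effect and a strain effect cannot be told apart. At 60 min YPK1 stood at 1.55 on the Ypk1 array and at −0.62 on the Ypk2 array, whose cells lack the gene. YPK2 stood at 0.94 on the Ypk1 array, whose cells lack it, and at 1.36 on the Ypk2 array. LEU2, a leucine synthesis gene, stood at 1.72 and 1.22 at 60 min and at 1.44 and 1.45 at 0 min, so it was high on all 4 of these arrays. Among 7 markers of mating type a, which include the receptor gene STE2 (−0.33 and −0.17), 1 was shared higher, the protease gene BAR1. None of 4 markers of mating type alpha, which include the receptor gene STE3 (−0.41 and 0.20), was shared.

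On the Ypk1 array 758 features were higher in AS cells (12.2% of 6225) and 566 were lower (9.09%). On the Ypk2 array 627 were higher (10.1%) and 412 were lower (6.62%). A total of 304 were shared higher (4.88%) and 118 shared lower (1.9%), while 29 lay past the threshold with opposite signs (0.466%). The shared higher features made up 40.1% of those higher on the Ypk1 array and 48.5% of those higher on the Ypk2 array, and for the lower ones the shares were 20.8% and 28.6%. A further 873 features passed on the Ypk1 array alone (429 higher, 444 lower) and 588 on the Ypk2 array alone (319 higher, 269 lower), which leaves 4313 on neither. Single-array did not mean near 0 on the other array. The other ratio was under 0.5 in size for 484 of the 873 and for 304 of the 588. Over all features the median size of a ratio was 0.45 on the Ypk2 array and 0.52 on the Ypk1 array, so these counts lie near the share of all features. The other ratio had the same sign in 69.9% and 73.6% of the single-array features, against 62.4% of all features.

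**Figure D1:**
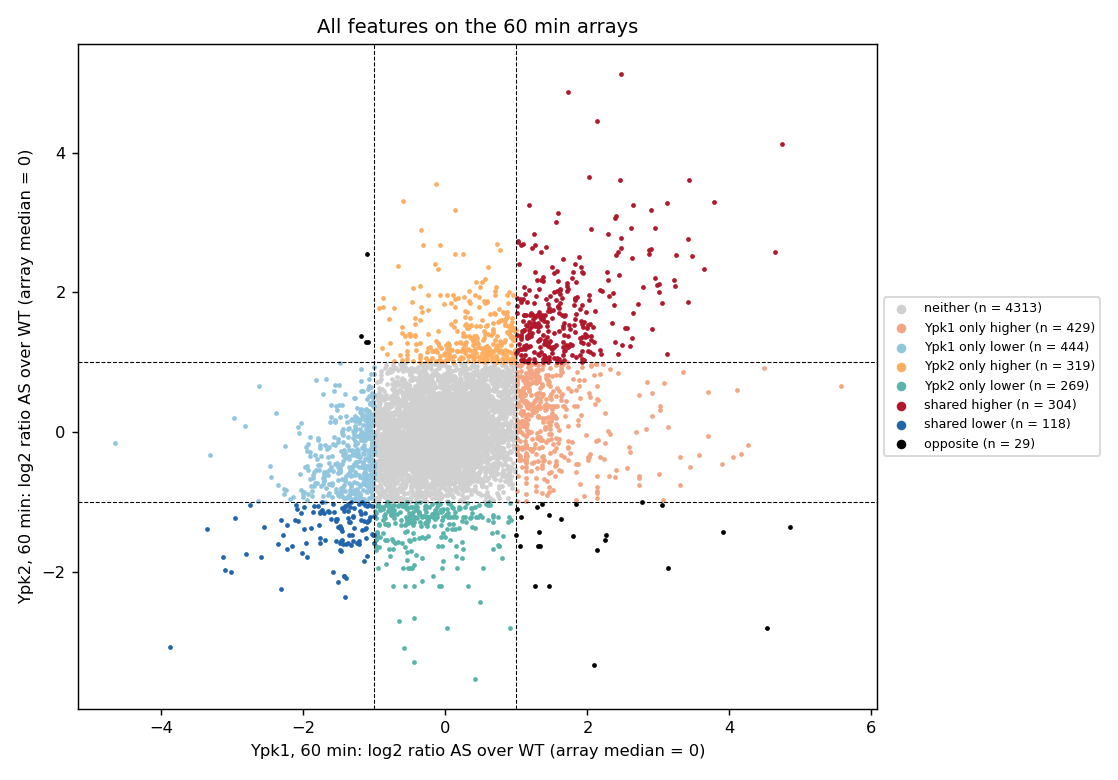
Each point is a feature, with its log2 ratio of AS over WT on the Ypk1 60 min array on the x axis and on the Ypk2 60 min array on the y axis; dashed lines mark −1 and 1 and colours mark the classes. The upper right corner (304 features) is fuller than the lower left (118), and 25 of the 29 opposite features lie at the lower right, higher on the Ypk1 array.

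Across the 6225 features the 60 min arrays correlated at r = 0.44, with features as points; each array is its own hybridisation, and whether arrays of a series share a culture is not given. The 60 min array of either kinase was closer to the 30 min array of the other kinase than to its 60 min array: r was 0.52 between Ypk1 at 60 min and Ypk2 at 30 min, and 0.63 between Ypk2 at 60 min and Ypk1 at 30 min. Within a series, the 60 and 30 min arrays correlated at 0.60 for Ypk1 and 0.75 for Ypk2. The WT array, which had no inhibitor, correlated with the Ypk2 60 min array at 0.47 and with the Ypk1 60 min array at 0.19. Of the shared higher features 54 (17.8%) were past 1 on the WT array as well, where 2.75% of all features were, and of the shared lower ones 12 (10.2%) were at −1 or less there, against 2.3% of all.

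KXD1 (YGL079W), which encodes a subunit of the endosomal BLOC-1 complex, had the highest smaller ratio of the shared higher class, 4.74 on the Ypk1 array and 4.12 on the Ypk2 array. It was also high without inhibition, at 2.13 and 1.06 at 0 min and 2.90 on the WT array. NCW2 (YLR194C), which encodes a cell wall protein, stood at 1.13, 2.23, 4.57 and 3.43 at 0, 15, 30 and 60 min of the Ypk1 series and at 0.48, 2.03, 3.03 and 3.60 in the Ypk2 series. All 6 later values lay above both 0 min values. YPT53 (YNL093W), an endosomal Rab GTPase, had Ypk1 ratios of 0.63, 2.70, 3.90 and 3.78 and Ypk2 ratios of 0.80, 2.38, 3.22 and 3.30. It was the 1 shared member among 11 endosomal and vacuolar Rab genes, whose medians were −0.13 and 0.40. For YPS1 (YLR120C), an aspartyl protease of the cell surface, the Ypk1 ratios were 0.44, 2.49, 2.98 and 3.11 and the Ypk2 ratios 1.13, 2.10, 2.91 and 3.28. The step from 0 to 15 min was larger than that from 15 to 60 min in both series for YPT53, and in the Ypk1 series but not the Ypk2 series for YPS1.

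SNZ1 (YMR096W) and SNO1 (YMR095C) are adjacent genes whose products make vitamin B6 together. SNZ1 was at 0.42 and 0.71 at 15 min, at 3.13 and 1.71 at 30 min and at 2.96 and 2.92 at 60 min on the Ypk1 and Ypk2 arrays. SNO1 was at 0.24 and 1.43 at 15 min, at 2.27 and 2.06 at 30 min and at 2.86 and 2.61 at 60 min. SPG4 (YMR107W), needed for survival in stationary phase, stood at 2.64 and 3.25 at 60 min, with 1.51 on the WT array. The remaining genes named by the rule were YHR054C (2.90 and 3.18), YNL208W (3.41 and 2.77), YBR284W (2.62 and 2.93) and APQ13 (2.89 and 2.62), whose feature overlaps NET1 so that their transcripts may not be told apart. DTR1 (YBR180W), which exports a spore wall building block, lay between −0.34 and 0.27 on the 0, 15 and 30 min arrays of both series and at 4.64 and 2.58 at 60 min. It is the largest of 15 shared higher genes that were under 0.5 in size at 15 min in both series, ahead of YFL057C, ATG18, DLD3, YEL073C and YGR266W, whose 60 min ratios ran from 1.46 to 2.41. YBR178W and YBR184W, 2 and 4 numbers from DTR1 in the systematic names, were higher on the Ypk2 array alone (YBR184W at 2.68). Such spacing is described below, and its part in the DTR1 ratio was not tested.

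The shared lower gene furthest from 0 by its smaller ratio was YPP1 (YGR198W), which helps anchor the lipid kinase Stt4 at the plasma membrane. It stood at −0.21, −1.50, −2.47 and −3.87 in the Ypk1 series and at −0.90, −2.26, −2.77 and −3.07 in the Ypk2 series. It was lower at each later time in both series, and it was at −1.61 on the WT array. MEP2 (YNL142W), a high-affinity ammonium permease, was at −0.54 and −0.22 at 0 min and at −3.02 and −2.01 at 60 min, with −1.95 on the WT array. PHO84 (YML123C), the high-affinity phosphate transporter, was already low at 0 min, at −1.26 and −1.29, and stood at −2.81 and −1.75 at 60 min. Its feature overlaps YNCM0001W. The iron uptake genes FET3 (YMR058W), a ferroxidase, SIT1 (YEL065W), a siderophore transporter, and FTR1, the iron permease partner of Fet3, were shared lower. FET3 was at 0.99 and −0.54 at 0 min and at −3.10 and −1.97 at 60 min. SIT1 was at −2.03 and −1.73 at 60 min, and FTR1 at −2.56 and −1.36. All 3 lay below their own 0 min ratio on both 60 min arrays. They were the only shared members among 32 iron regulon genes, whose medians were 0.16 and −0.01, and the heme oxygenase gene HMX1 of that list was at 0.70 and 2.02.

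JEM1 (YJL073W), a chaperone partner in the endoplasmic reticulum, stood at −2.32 and −2.24 at 60 min, but it was at −2.56 at 0 min of the Ypk1 series, and with 0 min subtracted its Ypk1 ratio was 0.24. The others named by the rule were the vacuolar amino acid transporter gene YPQ1 (−1.95 and −1.79), RPS30B (−3.13 and −1.78), the thymidylate kinase gene CDC8 (−2.24 and −1.67), LHP1 (−2.16 and −1.62), SRP40 (−2.36 and −1.60) and YHR125W (−2.60 and −1.79). RPS30B has a near-identical copy, so its value may hold signal of both. Of the 118 shared lower genes, 2 were under 0.5 in size at 15 min in both series. MRH1, a plasma membrane protein gene, was at 1.43 and 1.69 at 0 min and at −1.90 and −1.37 at 60 min, and YPL251W was at −1.11 and −1.06.

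**Figure D2:**
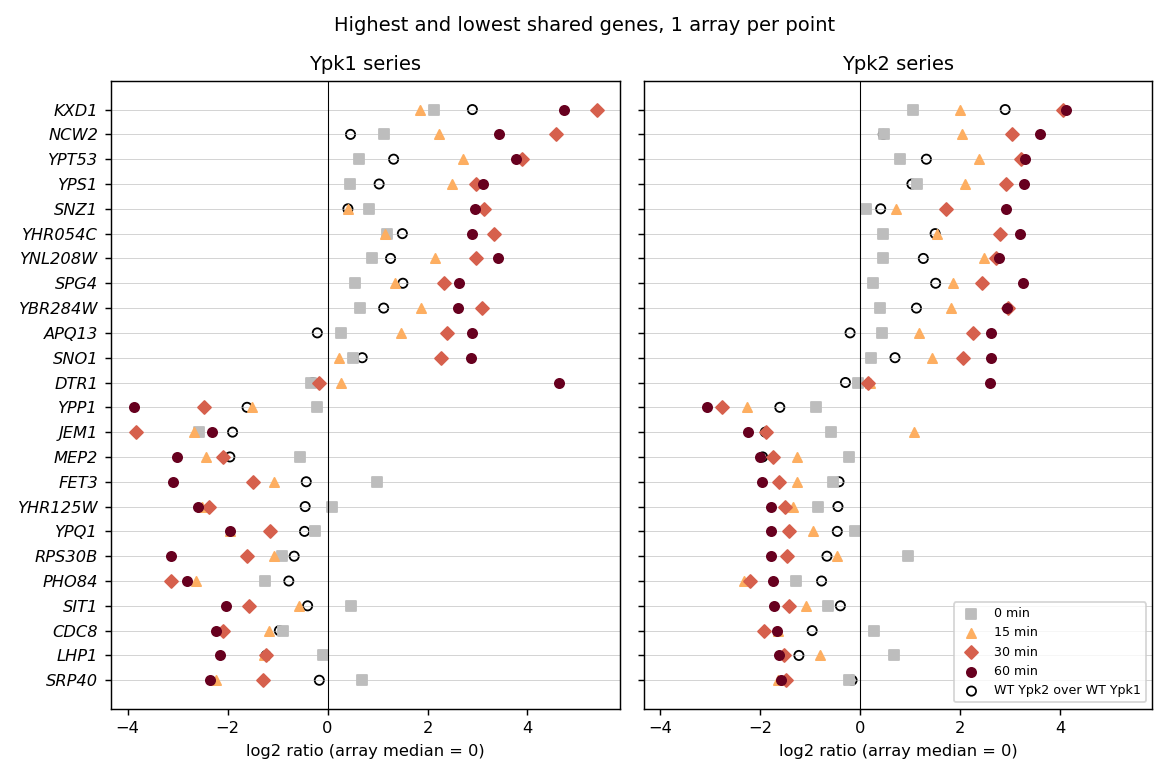
Log2 ratio of the 12 highest and 12 lowest shared genes on each array (x axis, array median at 0), 1 marker per array, with the Ypk1 series on the left and the Ypk2 series on the right; open circles repeat the WT array. DTR1 has its 60 min marker alone at the right, and JEM1 its 15 min marker of the Ypk2 series on the other side of 0, at 1.07.

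Gene lists were described by their medians and counts, beside a median of 0 over all features and shared shares of 4.88% (higher) and 1.9% (lower). For counts on the Ypk1 array alone the shares of all features were 6.89% (higher) and 7.13% (lower). On the Ypk2 array alone they were 5.12% (higher) and 4.32% (lower). Genes for vacuolar proteases and their inhibitors stood highest, with medians of 1.18 on the Ypk1 array and 1.21 on the Ypk2 array and 6 of 14 shared higher. These were the protease genes PEP4 (2.63 and 2.49), PRB1 (3.00 and 2.11), PRC1 (1.15 and 1.52) and APE1 (2.64 and 1.70), and the inhibitor genes TFS1 (2.45 and 3.61) and PBI2 (1.04 and 2.40). On the WT array PBI2 was at 2.15, PEP4 at 0.79 and APE1 at 0.53. RRT12, a spore-specific protease gene of the same list, was at −3.32 and −0.33. In the general stress list, 19 of 53 were shared higher and none shared lower, with medians of 1.07 and 0.59. It holds PRB1 and TFS1 too, along with GLK1, a glucokinase (2.27 and 2.29). ALD3, an aldehyde dehydrogenase (2.04 and 2.91), and HSP12, a membrane chaperone (1.55 and 3.01), also belong to it. On the WT array, without inhibitor, HSP12 was at 3.45, TFS1 at 1.76, ALD3 at 1.44, GLK1 at 1.37 and PRB1 at 0.28. Acetate and aldehyde genes had medians of 0.90 and 0.85, with 4 of 12 shared higher, among them ALD4 (2.41 and 2.54), and 1 shared lower, the ammonium exporter gene ATO3 (−1.30 and −1.56).

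Cell surface and calcium signalling lists had medians nearer to 0 and a shared higher core. Of 61 cell wall integrity genes 12 were shared higher and 10 were higher on the Ypk2 array alone, with medians of 0.23 and 0.29 beside 0.46 on the WT array. NCW2 and YPS1 led them, followed by SCW10, a glucanase-like wall protein (2.47 and 2.77). BAG7, a Rho1 regulator (2.99 and 2.10), and CHS1, a chitin synthase (1.42 and 2.66), came next. At 0 min SCW10 was at 1.05 and 1.25, BAG7 at 1.25 and 0.17, and CHS1 at 0.61 and 0.53. On the WT array these 3 were at 1.34, 1.06 and 0.83. Of 28 calcineurin and calcium genes 7 were shared higher, with RCN1 (1.93 and 2.28) and RCN2 (2.40 and 3.09), regulators of the phosphatase, and BAR1 (3.48 and 2.52) among them. The genes for calcineurin itself were not: CNA1 was at −0.47 and 0.38, CMP2 at −0.41 and −0.61, and CNB1 at 0.80 and 1.05. Among 21 drug export genes 4 were shared higher, led by QDR2 (2.79 and 2.08) and the efflux pump gene PDR5 (1.71 and 2.02). Of the TORC2 and Ypk list 2 of 32 were shared higher (6.25%), near the 4.88% of all features, with medians of 0.39 and 0.12. These were ORM2 (1.71 and 2.13), which holds back sphingolipid synthesis, and GPD1 (1.46 and 1.29), which makes glycerol.

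Of 37 citrate cycle and gluconeogenesis genes 6 were shared higher, with CIT2, the peroxisomal citrate synthase, at 3.24 and 2.54. Without centring 3 were. None of 39 respiratory chain and ATP synthase genes was shared, and their medians were 0.17 and 0.19. Of 32 autophagy genes 6 were shared higher, at 1.03 or more, and they include ATG8 (1.03 and 1.26), which coats the autophagosome membrane. With 0 min subtracted 2 were. Of 39 actin patch and endocytosis genes 5 were shared higher, with the actin bundling gene SAC6 at 1.58 and 2.17 and ACT1 at 1.70 and 1.24. ACT1 was at 1.24 and 1.00 at 0 min already.

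Genes that build ribosomes stood lowest. The 90 ribosome biogenesis genes had medians of −0.91 and −0.77, with 20 shared lower, 20 lower on the Ypk1 array alone and 10 on the Ypk2 array alone. The shared count was 37 without centring and 12 with 0 min subtracted. RRP12, an export factor of ribosomal subunits, was at −1.52 and −2.15, EBP2 at −1.96 and −1.58 and UTP10 at −1.99 and −1.39. RNA polymerase I and III genes had medians of −0.72 and −0.47, with RPA43 at −2.29 and −1.47. RPA34, an RNA polymerase I subunit gene, went the other way, at 1.64 and 1.93. The 137 cytosolic ribosomal protein genes had medians of −0.12 and −0.50, after 0.68 and 0.65 at 0 min. Of these, 4 were shared lower, 11 were lower on the Ypk1 array alone and 23 on the Ypk2 array alone. With 0 min subtracted 38 were shared lower, with medians of −0.84 and −1.08, and without centring 14 were. The phosphate list was split, with 4 of 28 shared lower, among them the acid phosphatase genes PHO5 (−3.35 and −1.39) and PHO3 (−1.41 and −2.36), and 3 shared higher, among them PHM7 (1.78 and 2.21). PHO5 and PHO3 are close in sequence, so their signals may be mixed.

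A few lists differed between the arrays in their medians, which was not tested because each rests on 1 array. Core histone genes were at a median of −0.67 on the Ypk1 array and 0.44 on the Ypk2 array. With 0 min subtracted both medians were below 0, at −1.24 and −0.49. The H3 gene HHT2 was at −1.57 and 0.58 and the H4 gene HHF1 at −1.04 and −0.17, and each has a second copy of near-identical coding sequence. Of 36 proteasome genes 9 were higher on the Ypk2 array alone and 1 on both, with medians of 0.26 and 0.50. Without centring these were 0.12 and 0.13, and with 0 min subtracted 0.30 and 0.23, in the other order. RPN4, the activator of proteasome genes, was at 0.10 and 1.02. Of 37 translation factor genes 8 were lower on the Ypk1 array alone and 3 on the Ypk2 array alone, with medians of −0.46 and −0.11.

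**Figure D3:**
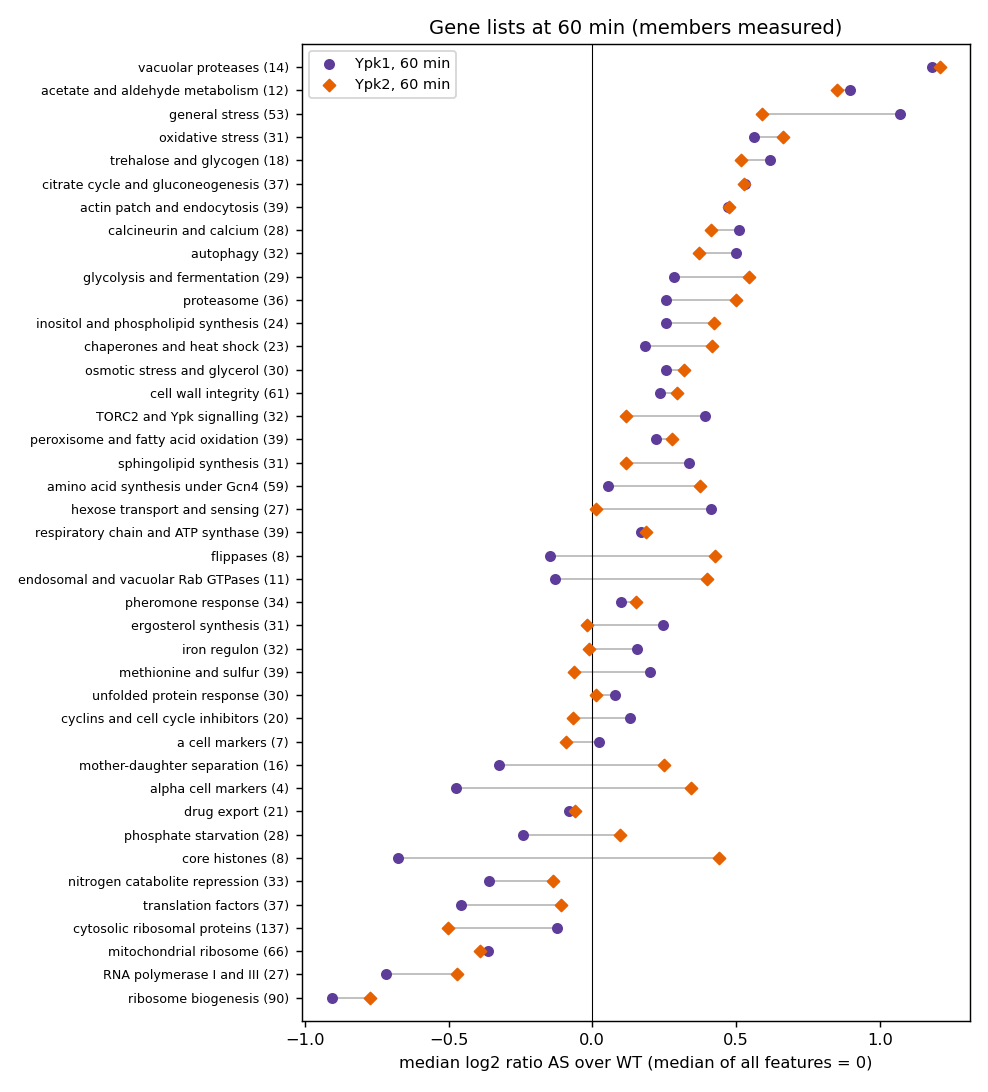
Median log2 ratio of AS over WT (x axis) of 41 gene lists on the Ypk1 (circles) and Ypk2 (diamonds) 60 min arrays, with the number of members measured in brackets. Vacuolar protease genes lie at the right on both arrays (1.18 and 1.21), ribosome biogenesis genes at the left (−0.91 and −0.77), and core histones lie on both sides of 0.

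Most shared genes were past the threshold at 30 min already. The median of the shared higher class was 0.34, 1.13, 1.51 and 1.58 at 0, 15, 30 and 60 min of the Ypk1 series and 0.25, 0.95, 1.37 and 1.58 in the Ypk2 series. Since the class was chosen at 60 min, the 60 min values had to be high, while the earlier arrays were not used in the choice, though they share strains, dye orientation and possibly cultures with it. Of 303 with a value on all 8 arrays, 180 were past 1 at 30 min in both series and 100 at 15 min in both, where 4.68% and 3.42% of all features were. The shared lower class ran from −0.18 through −1.26 and −1.49 to −1.47 and from −0.29 through −0.96 and −1.16 to −1.35. Of its 118 members 69 were at −1 or less at 30 min in both series and 40 at 15 min, against 2.43% and 1.45% of all features.

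Genes chosen at 30 min were then followed to 60 min. Of 291 features that were shared higher at 30 min, 253 were still at 1 or more on the Ypk2 60 min array and 200 on the Ypk1 60 min array. Their median went from 1.46 to 1.58 in the Ypk2 series and from 1.60 to 1.33 in the Ypk1 series. Of the 151 shared lower at 30 min, 99 were still at −1 or less on the Ypk1 60 min array and 99 on the Ypk2 one, and 69 on both. Features chosen for being far out at 30 min are apt to lie nearer to 0 on any other array, and its share in the shift was not tested.

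**Figure D4:**
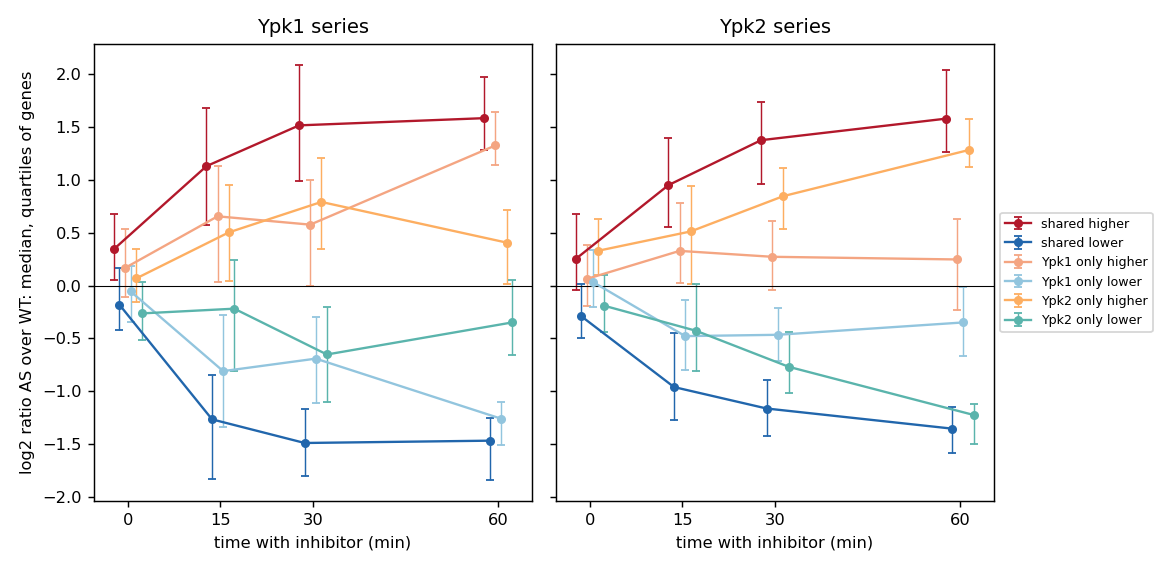
Median log2 ratio (points) and quartiles (bars) over the genes of each class against time with inhibitor, with Ypk1 arrays on the left and Ypk2 arrays on the right; points are offset sideways. The shared classes have medians past 0.9 in size from 15 min on, while genes higher on the Ypk2 60 min array alone have a median of 0.79 on the Ypk1 array at 30 min and 0.41 at 60 min.

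The 4 arrays at 15 and 30 min played no part in choosing the classes and were tested with limma, with the 2 times of a series as repeated looks and Benjamini-Hochberg adjustment over 6263 features. A p-value there measures the spread between times, which may come from a single culture. For Ypk1 149 features were called higher (2.38%) and 162 lower (2.59%), at an adjusted p under 0.05. The calls included 99 of the 303 shared higher features (32.7%) and 50 of the 118 shared lower ones (42.4%), each with the sign of its class. Of genes higher on the Ypk1 60 min array alone 4.91% were called higher, and of those higher on the Ypk2 array alone 5.33%. Of genes lower on a single array, 13.7% (Ypk1) and 8.55% (Ypk2) were called lower for Ypk1. For Ypk2 none was called (0%), with a smallest adjusted p of 0.0622, although 1065 features had an unadjusted p under 0.05. These counts depended on scaling and on single arrays. With all arrays scaled to one spread, Ypk1 had 0 calls (smallest adjusted p = 0.0732, unadjusted p under 0.05 for 1375 features) and Ypk2 had 297. Ypk1 also had 0 calls without its 15 min array and without its 30 min array, and 178 and 194 without the Ypk2 15 and 30 min arrays. The number of calls therefore does not rank the kinases.

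The mean of 15 and 30 min for Ypk1 was 3.30 ± 0.38 (SE, limma adjusted p = 0.0343) for YPT53, 2.74 ± 0.31 (adjusted p = 0.0343) for YPS1 and 3.40 ± 0.56 (adjusted p = 0.0375) for NCW2. KXD1 did not pass (3.61 ± 0.84, adjusted p = 0.0600), nor did SNZ1 (1.78 ± 0.62, adjusted p = 0.132) or DTR1 (0.06 ± 0.27, adjusted p = 0.910). PHO84 was called at −2.89 ± 0.27 (adjusted p = 0.0343), MEP2 at −2.26 ± 0.28 (adjusted p = 0.0343) and YPP1 at −1.99 ± 0.33 (adjusted p = 0.0377), while FET3 was not (−1.29 ± 0.28, adjusted p = 0.0526). By list, 30 of 90 ribosome biogenesis genes were called lower for Ypk1 and none higher, against 2.59% and 2.38% of all features. Of general stress genes 11 of 53 were called higher and none lower, and of vacuolar protease genes 5 of 14 higher and none lower. Of calcineurin and calcium genes 8 of 27 were called higher and 1 lower. Other lists had few calls or none, such as 2 higher and 4 lower of 137 cytosolic ribosomal protein genes and none of 36 proteasome genes. The means for Ypk2 had the same sign and did not pass: YPT53 2.80 (adjusted p = 0.0652), RCN1 2.60 (adjusted p = 0.0622) and PHO84 −2.27 (adjusted p = 0.0622). The difference between the kinases, Ypk1 minus Ypk2, was called for 0 features (0%; smallest adjusted p = 0.853, unadjusted p under 0.05 for 339). With 0 min subtracted it was called for 3, YRF1-3, SHU1 and YHL008C (smallest adjusted p = 0.0356), which stood at 4.66, 4.3955 and 4.85 on the Ypk1 0 min array and between −0.93 and 0.04 on the 15 and 30 min arrays of both series.

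Genes past the threshold on a single 60 min array had been past it earlier in the other series more often than all features. Of 319 genes higher on the Ypk2 60 min array alone, 158 (49.5%) had been at 1 or more on the Ypk1 array at 15 or 30 min, where 18% of all features were. Of 269 lower on the Ypk2 array alone, 106 (39.4%) had been at −1 or less on one of those Ypk1 arrays, against 18.3% of all. At 15 and 30 min the median size of a ratio was 0.58 and 0.46 on the Ypk1 arrays, and 0.405 and 0.35 on the Ypk2 arrays. In the other direction both the counts and the shares of all features were smaller. They were 86 of 428 higher (20.1%), against 13.2% of all features on the Ypk2 arrays at 15 or 30 min. For the lower genes the count was 73 of 444 (16.4%), against 6.27%. For 234 and 212 of these Ypk1 genes, and for 193 and 178 of the Ypk2 genes, neither the 15 nor the 30 min array of their own series was past 1 in the same direction.

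Of the genes under 0.5 in size on the other 60 min array, the 8 per class with the largest difference between the arrays are named. Among genes higher on the Ypk1 array alone, 2 of the 8, ERV41 and GLN1, were past 1 at 15 or 30 min of that series. WSC4, a gene of the Wsc cell surface sensor family, was at 0.12 and −0.17 at 15 and 30 min and at 4.26 at 60 min, with −0.18 on the Ypk2 60 min array and 2.77 on the Ypk2 15 min array. CBF1, a factor that binds centromeres and sulfur gene promoters, was at 0.10, 0.02 and 3.70, with −0.06 on the Ypk2 array. ERV41, a protein of vesicles between the endoplasmic reticulum and the Golgi, was already at 1.27 at 0 min of the Ypk1 series. At the 3 later times of that series ERV41 was at 2.98, 2.19 and 4.04. On the Ypk2 arrays it was at 1.31 at 15 min and at −0.36 at 60 min. It was called for Ypk1 at 15 and 30 min (2.58 ± 0.40, limma adjusted p = 0.0343). NAT2 (3.89), YNR077C (3.57), AYR1, a lipid metabolism reductase (3.45), and GLN1, the glutamine synthetase (3.31), followed, along with the transposon feature YDR098C-B (4.16), whose copies cannot be told apart. GLN1 was at 2.07 and 2.26 at 15 min of the Ypk1 and Ypk2 series, and AYR1 was at 1.62 on the Ypk2 15 min array.

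Among genes lower on the Ypk1 array alone, TOD6, a repressor of ribosome biogenesis genes, was at 0.04, −1.25, −1.51 and −4.66 in the Ypk1 series and between −0.40 and −0.15 in the Ypk2 series. TOD6 was called for Ypk1 at 15 and 30 min (−1.38 ± 0.26, limma adjusted p = 0.0441), and its difference between the kinases was not. NOP56, a nucleolar protein, was at −2.08 at 60 min on the Ypk1 array and at 0.08 on the Ypk2 array, but at −1.57 and −1.33 on the Ypk2 arrays at 15 and 30 min. PHO11 (−2.82), RRT12, AST1 (−2.98), LYS5 (−2.39), YGL152C (−2.27) and YGR291C (−2.03) made up the rest, with Ypk2 ratios from −0.33 to 0.28, and PHO11 has a near-identical copy. Of these 8 genes 7 were at −1 or less at 15 or 30 min of the Ypk1 series, such as AST1 at −1.91 and −1.02, and YGR291C was at 0.84 and 0.57.

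On the Ypk2 array alone, YDR053W (3.55), the spindle pole body gene SPC72 (3.18), YCL023C (2.90), YBR184W (2.68), the nuclear import gene PSE1 (2.68), the SUMO ligase gene SIZ1 (2.41), YGR126W (2.10) and UPA1 (2.06) were named on the higher side. Genes at 0.5 or more on the Ypk1 array, such as CTS1 (2.37 on the Ypk2 array and 0.59 on the Ypk1 array), were left out by the rule. At 15 and 30 min of the Ypk2 series these 8 genes lay between −1.58 and 0.84, so none was past 1 on the higher side at these times. YCL023C was at 1.11 at 0 min. Named on the lower side were YNL205C (−3.52), the CTP synthase gene URA7 (−3.29), YDR327W (−2.80), PSK1 (−2.66), MRPL19 (−2.43), SIL1, RER1 and MAY24 (each −2.21). PSK1, a nutrient-sensing kinase gene, was at −1.17 and −1.86 at 15 and 30 min of the Ypk2 series, and at −4.36 on the Ypk1 15 min array. Of these 8, PSK1 alone was past −1 at 15 or 30 min of its own series. MRPL19 overlaps YNL184C.

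The opposite class of 29 held 25 features higher on the Ypk1 array and 4 higher on the Ypk2 array. GSY1, a glycogen synthase gene, stood at 4.53 and −2.80, after 0.93 and −0.02 at 15 and 30 min of the Ypk1 series and 0.59 and −0.58 of the Ypk2 series. FUN30, a chromatin remodeller gene, stood at 3.14 and −1.95, after 1.64, 0.16 and 2.19 at 0, 15 and 30 min of the Ypk1 series. YTP1 stood at 2.09 and −3.32, PET112 at 2.14 and −1.69 and OAF3 at 2.27 and −1.48. PRM6 was at 1.80 and −1.49 and YNL235C at 1.46 and −2.21. YTP1 (YNL237W) and YNL235C lie 2 numbers apart in the systematic names, a spacing described below. RPS1B, at 2.25 and −1.55, has a near-identical copy.

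The difference between the 60 min arrays had a pattern along the systematic numbering of yeast genes, in which names count along a chromosome arm. It correlated at r = 0.41 between features 2 numbers apart, 0.29 at 4 apart and 0.22 at 6 apart, but −0.02 at 1 apart. For the mean of the 60 min arrays r was 0.16 at 2 apart and 0.14 at 1 apart. Taken singly, the Ypk1 60 min array had 0.23 at 2 apart and 0.14 at 1 apart, and the Ypk2 one 0.22 and 0.03. The WT array had 0.24 and 0.18. The difference between the kinases in the mean of 15 and 30 min had 0.23 and 0.12. Of the opposite features 31.0% had another opposite feature 2 numbers away and 0% had one 1 number away, where 0.901% and 0.835% of all features had one. The shares at 2 and at 1 were 30.2% and 14.8% for genes higher on the Ypk1 array alone, against 12.3% and 11.96% of all features near such a gene. They were 32.0% and 17.8% for those lower on it, against 13.4% and 13.01%. For the Ypk2 array alone they were 20.7% and 6.15% (higher), against 9.41% and 9.59%, and 22.7% and 12.02% (lower), against 7.83% and 7.92%. Shared higher genes had 17.5% and 18.0%, against 9.21% and 8.83%, and shared lower genes 5.17% and 3.45%, against 3.804% and 3.774%. PET112 (YBL080C), ALG3 (YBL082C) and CDC27 (YBL084C), the last chosen after its values were seen, form such a ladder, with Ypk1 ratios of 2.14, 3.91 and 4.85 and Ypk2 ratios of −1.69, −1.43 and −1.36. With the median of the features 2 and 4 numbers away subtracted, PET112 was at −0.33 on the Ypk1 array. The same subtraction kept 215 of the 304 shared higher and 66 of the 118 shared lower genes in their class, and 9 of the 29 opposite ones. The layout of the array was not used here, and the part of the layout in these classes was not tested.

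**Figure D5:**
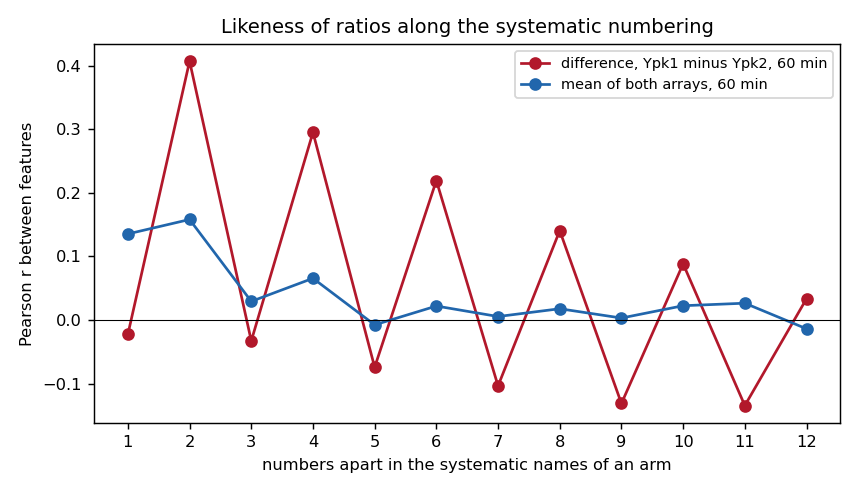
Pearson r (y axis) between features a given count of numbers apart in the systematic names of a chromosome arm (x axis), for the difference between the 60 min arrays and for their mean. The difference alternates, with 0.41 at 2 apart and −0.02 at 1 apart, while the mean stays at 0.16 or less.

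Ratios that equal fractions of small whole numbers were frequent on several arrays. Deposited ratios lie on a grid of 0.001. On the Ypk2 60 min array 8 features had exactly 1/6 (0.167), where the 12 grid steps around it held 0.0833 on average. On that array 35 had exactly 0.500, where the steps around it held 5.58. On the Ypk1 60 min array 0 features had 0.167 and 15 had 0.500, where the steps around it held 3.83. At 0.167 the other arrays had 0 or 1 feature. At 0.500 the excess was present elsewhere too, with 26 on the Ypk2 30 min array (3.83 around it) and 22 on the Ypk1 15 min array (5.42 around it). Fractions with both terms up to 9 made up 6.55% of all features on the Ypk2 array, but 41.4% of the opposite class and 17.8% of the genes lower on the Ypk2 array alone. They made up 1.64% of the shared higher and 0.847% of the shared lower class. GSY1, FUN30, YNL235C, YDR327W, MRPL19, SIL1, RER1, MAY24, SPC72, ERV41 and GLN1 are among them, and YPK1, which these cells lack, had exactly 0.500. On the Ypk1 array such fractions made up 17.9% of the genes higher on it alone, against 7.81% of all features. Their part in these classes was not tested. Without these features of the Ypk2 array, 299 shared higher, 117 shared lower and 17 opposite features remained.

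At the edge of the shared class, RPF1 lay just inside with a smaller ratio of 1.00 (1.14 on the other array), as did FYV7 and REX4 at −1.0019 on the Ypk2 array. CMK2, a calmodulin-dependent kinase gene, and the transposon feature YDR365W-A lay just outside at 0.9991 on the Ypk2 array, beside 1.67 and 1.71 on the Ypk1 array, and the vacuolar transporter gene AVT1 at 0.9984 on the Ypk1 array. CMK2 was counted as higher on the Ypk1 array alone although its 2 ratios were both close to or above 2-fold.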

How the data were processed

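The authors deposited 1 table of log2 ratios of the 2 channels of 9 arrays. The log2 scale was read from the values, 100% of which then lie on a ratio grid of 0.001, against at most 47.0% if read as log10. Array design, scanner, background correction and normalization are not given in the sources used here, and neither are intensities. Deposited array medians ran from −0.52 to 0.23 (−0.14 and −0.38 on the 60 min arrays), so each array was centred on its median. No label names separate cultures, and the number of arrays limits the precision. Of 6268 features 5777 were matched by systematic name to RefSeq genes (R64, names only) and 491 kept their name.

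No test was made at 60 min. limma 3.58.1, run in R 4.3.3, fitted the 15 and 30 min arrays with 2 residual degrees of freedom, and the fit was tested on simulated data. Named genes were taken by rule: the 12 shared genes each way with the largest smaller ratio, 8 per single-array class and direction under 0.5 on the other array, 8 opposite, up to 6 late ones each way, 3 on each side of the threshold, and members from each list's 6 largest, or further members that bear on a list. The classes and 41 gene lists were chosen with earlier results of these data known. Lists share members.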

Additional observations from a re-analysis of the deposited data

Results flagged for a closer look

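For 3 of the 29 opposite features every later array of the Ypk1 series was above 0 and every later Ypk2 array below 0. The 60 min signs were set by the class, the share of all features with such signs was not counted, and the pattern was not tested. On the 15 and 30 min arrays the limma difference between the kinases was called for 0 of 6263 features (smallest adjusted p = 0.853). TGL1, a steryl ester hydrolase gene, was at 1.21, 0.33 and 1.46 at 15, 30 and 60 min of the Ypk1 series and at −0.16, −1.02 and −1.19 in the Ypk2 series, a difference of 2.64 at 60 min. YPR050C was at 1.23, 0.43 and 2.77 and at −0.29, −0.28 and −1.0019, a difference of 3.77. YDR102C was at 0.26, 0.07 and 1.28 and at −0.14, −0.30 and −1.07, a difference of 2.36. At 0 min TGL1 was at −0.15 and −0.22, so it was on one side of 0 in both series before inhibitor. YPR050C was then at 0.40 and 0.20, and YDR102C at 0.64 and −0.08, on both sides of 0 already.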

How the results depend on the processing

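The class counts are given as shared higher, shared lower, opposite, Ypk1 only higher and lower, Ypk2 only higher and lower where all are listed. At a threshold of 1.5-fold they were 641, 476, 206, 656, 801, 562 and 530, and at 3-fold 87, 15, 4, 193, 122, 143 and 72. Without centring, which leaves medians of −0.14 and −0.38, there were 176 shared higher, 297 shared lower, 56 opposite, 156 Ypk2 only higher and 683 Ypk2 only lower. With 0 min subtracted there were 200 shared higher and 54 opposite. With quantile normalization there were 75 shared lower, 16 opposite and 253 Ypk1 only lower. With the neighbour median subtracted, chosen after seeing the data, there were 184 shared lower and 16 opposite, and without small fractions, likewise, 17 opposite. The cause of these shifts was not tested. All other class counts under these settings, with arrays scaled or with matched features only, stayed within 1.5 times. Membership moved more than the counts: with 0 min subtracted 165 of 304 shared higher and 47 of 118 shared lower genes kept their class, and with the neighbour median subtracted 224 of 429, 183 of 444, 142 of 319 and 131 of 269 single-array genes did. Among list counts, shared higher cell wall integrity genes went from 12 to 7 and actin genes from 5 to 2 with 0 min subtracted.

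For 15 and 30 min, Ypk1 had 590 calls without centring, 0 with scaled arrays, 73 with quantile normalization and 0 to 194 with 1 array left out (a lone array is then assumed to vary like the others). Ypk2 had 4, 297 and 250, and 0 to 4. The difference had 3 calls with 0 min subtracted. Of 112 named 60 min ratios, JEM1 turned to 0.24 on the Ypk1 array with 0 min subtracted and PET112 to −0.33 with the neighbour median subtracted; no other changed sign. With time (15 or 30 min) as a block the difference had 0 calls. That block matched the kinases by time only. Pairing by replicate number was not possible, since these numbers pair nothing with 1 array per condition.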
